A study of Heliconius melpomene cythera and Heliconius melpomene rosina with 32 samples.

Results

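The H. melpomene count table holds 84 rows whose gene ID carries a hand-given name that begins with Hmel, out of 30720 rows in all. The names fall into 2 enzyme families, with 33 rows of glutathione transferases (HmelGST) and 51 rows of UDP-glycosyltransferases (HmelUGT). The UDP-glycosyltransferase rows hold 52 names, because HmelUGT40V2 and HmelUGT40V3 share a single row. Rows were chosen by the case-sensitive text Hmel in the ID alone. Counts did not enter this rule, but it was set with earlier results of these data known. The letter after GST gives the class, which by convention is delta, epsilon, omega, sigma, theta, zeta or unclassified (u), and the number after UGT gives the UDP-glycosyltransferase family.

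Glutathione transferases join the tripeptide glutathione to electrophilic compounds or use it to reduce oxidised ones. The delta and epsilon classes are insect-specific and are best known for clearing plant toxins and insecticides, while sigma, theta, omega and zeta enzymes occur in many animals. The zeta enzyme works in the breakdown of tyrosine, the amino acid from which melanin and cuticle-tanning compounds are also made, and in Drosophila an omega enzyme takes part in making red eye pigment. UDP-glycosyltransferases sit in the membrane of the endoplasmic reticulum and attach a sugar to small lipophilic molecules, including plant compounds, pigments, cuticle precursors and hormones. Families UGT33 and UGT40 are expanded in moths and butterflies, whereas UGT50 is a conserved family with members in most insects.

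RNA was sequenced from pupal wings of 16 individuals from captive populations of H. m. cythera, which has iridescent blue wings, and H. m. rosina, which does not. There were 4 individuals of each subspecies at 50% and 4 at 70% of pupal development. Each individual gave 2 libraries, from the anterior hindwing (the androconial region, with its own scale type) and from the forewing with the posterior hindwing, so that there were 32 libraries in 8 groups of 4. The labels list 2 females and 2 males in the groups cythera 50%, rosina 50% and cythera 70%, and 4 males in rosina 70%. Individuals 1 to 4 were cythera and 5 to 8 rosina at 50%, and 9 to 12 were cythera and 13 to 16 rosina at 70%. Values below follow this order and, unless the anterior hindwing is named, come from the forewing and posterior hindwing.

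Library totals lay between 20151439 and 45570497 counts. Levels are given as normalised counts (CPM), scaled to the library total after its adjustment by edgeR's TMM factors. They are not corrected for gene length, so levels are compared between samples and not between genes. Where a library had no count for a gene, a true level of 3 counts was still possible (0.0603 to 0.147 CPM by library, counting error only). Tests are edgeR quasi-likelihood F-tests with Benjamini-Hochberg adjustment over all rows tested (FDR), and a row was called at an FDR under 0.05. Whole pieces of wing were sequenced, so a lower level from fewer cells of a type cannot be told apart from less RNA per cell. The remaining row IDs carry no gene symbols, so wing or other cell type markers were not checked here.

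Individuals 4 and 13 need separate mention before any comparison. Individual 4, a male labelled cythera at 50%, had the lowest level of its group for 18 of the 39 members tested at that stage, where it was lowest for 32.1% of all genes tested and highest for 33.5%. Among the cythera individuals at 70%, individual 10 was lowest for 14 of 33 members (28.7% of all genes) and individual 11 highest for 16 (29.3% of all genes). The study left out 1 mislabelled rosina individual whose number is not given in the sources used here. Among the 33 members tested at 70%, 4 had cythera levels separate from those of individuals 14 to 16, and individual 13, labelled rosina, lay in the cythera range for 1 of these, beyond it for 1 and between the subspecies for 2. Between the subspecies at 70%, edgeR called 31 of all rows without individual 13 and 0 to 2 without any other individual. Whether individual 13 is the one that the study left out was not tested. Individual 13 is counted as rosina below unless a fit leaves it out.

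Of the 84 rows, 59 had at least 1 count in some library and 25 had none. The unread rows were mostly UDP-glycosyltransferases, with 23 of 51 rows at 0 in all libraries against 2 of 33 glutathione transferase rows. Whether a row was read went with its kind of ID. All 54 rows that carry an assembled locus (MSTRG) had counts, whereas 25 of the 30 rows without one had none. Over the whole table, 4.28% of rows with an assembled locus and 56.9% of rows without one were at 0 in all libraries. Assembled loci are built from reads, so this link is largely fixed in advance and is not a result about the members. Of the 25 UGT33 rows, 17 had no count, and the single UGT34, UGT39 and UGT351 rows had none either. The edgeR filter left 49 members in the fit over all 32 libraries, 27 glutathione transferases and 22 UDP-glycosyltransferases.

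Several families carry neighbouring assembled-locus numbers. Sigma rows HmelGSTs9, HmelGSTs10, HmelGSTs1, HmelGSTs4, HmelGSTs5 and HmelGSTs6 have loci 5714 to 5718 and 5720. Omega rows have loci 7958, 7959 and 7961 to 7964, and UGT40 rows have 10030, 10038 and 10040 to 10044. Close copies of a family share sequence, and reads that fit more than 1 copy may have been divided between rows, which makes the values of single copies in such runs less certain. Genome positions were not used here.

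Development from 50% to 70% was accompanied by changes in most of the members that could be tested. The delta transferase HmelGSTd2, omega HmelGSTo3 and zeta HmelGSTz2 rose, as did HmelUGT40Z2 and HmelUGT46D3, while HmelUGT46E1, HmelUGT44A4 and HmelUGT45B1 fell. In the test with subspecies as a covariate, 23 of 42 members were called, 14 of them higher at 70% and 9 lower. The same test called 41.1% of all 14722 rows, 20.8% as higher and 20.3% as lower. The median log2 fold change was 0.16 over the 42 members and 0.02 over all rows tested. Of the 8 comparisons made, stage gave the most calls over the whole table, and the number of members called is to be read against that background.

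Of 23 glutathione transferases tested, 10 rose, 3 fell and 10 were not called. Of 19 UDP-glycosyltransferases tested, 4 rose, 6 fell and 9 were not called. The difference between the families was not tested. The 4 that rose were 3 UGT40 rows and HmelUGT46D3. No UGT40 row was called as lower, although HmelUGT40U1 had a negative fold change (−0.58, SE 0.81, FDR = 0.613). The 4 tested UGT33 rows all had negative fold changes, 2 of them called.

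**Figure D1:**
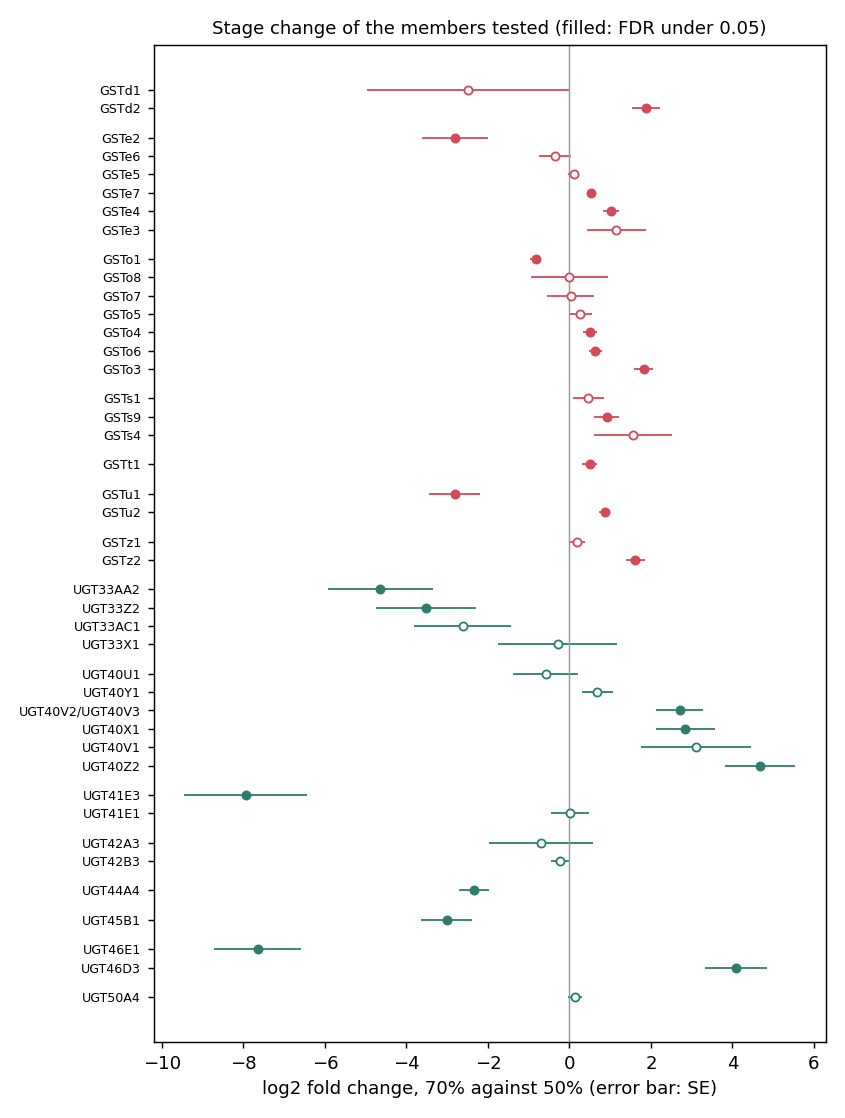
Log2 fold change from 50% to 70% development (x axis, error bars SE) for the 42 members tested in 16 forewing and posterior hindwing libraries, by class; filled points passed an FDR of 0.05. Glutathione transferases (red) lay between −2.82 and 1.89, and UDP-glycosyltransferases (green) spread from −7.95 to 4.68.

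HmelGSTd2, a delta-class detoxification enzyme, made up most of the glutathione transferase counts at 70%. Its levels at 50% were 652, 309, 450.5 and 59.4 CPM in cythera and 552, 493, 211 and 367 in rosina. At 70% they were 1449, 1272, 1583 and 1322 in cythera and 1404, 1277, 1708 and 1559.9 in rosina. All 8 individuals at 70% were above all 8 at 50%, and individual 4 was far below the rest. HmelGSTd2 thus had a log2 fold change of 1.89 (SE 0.34, FDR = 3.40e-04), and it was 1.72 (FDR = 2.42e-05) without individuals 4 and 13.

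HmelGSTd2 alone accounted for 13.7% to 46.7% of the summed glutathione transferase CPM at 50% and for 64.7% to 74.5% at 70%. The sum over all 33 rows went from 432 to 1417 CPM at 50% to a range of 1773 to 2293 at 70%, with no overlap. Without HmelGSTd2 the sum was 373 to 911 CPM at 50% and 501 to 722 at 70%, so that the ranges then overlapped. The summed UDP-glycosyltransferase level was 297 to 526 CPM at 50% and 169.9 to 336 at 70%. The anterior hindwing libraries gave like ranges, with 414 to 1386 CPM of glutathione transferases at 50% and 1726 to 2317 at 70%. The other delta gene, HmelGSTd1, was read weakly, at 2.34, 5.37 and 0.975 CPM in cythera individuals 1, 2 and 3 and at 0 to 0.589 CPM in every other individual.

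Among the omega transferases, which reduce oxidised glutathione-linked and ascorbate compounds, HmelGSTo3 changed most. HmelGSTo3 stood at 19.6, 13.8, 16.8 and 8.19 CPM in cythera and 7.02, 12.6, 13.6 and 12.7 in rosina at 50%. At 70% it was 35.7, 47.0, 48.6 and 34.3 in cythera and 52.3, 78.9, 38.3 and 36.8 in rosina. The stages did not overlap, and the log2 fold change was 1.82 (SE 0.23, FDR = 1.12e-05), with the smallest FDR of all members. HmelGSTo3 has a locus number apart from the run of the other omega rows.

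HmelGSTo1 went the other way and was the only omega gene called as lower at 70%. At 50% HmelGSTo1 was at 84.4, 99.8, 79.6 and 100.5 CPM in cythera and 85.4, 93.5, 46.1 and 68.1 in rosina. By 70% HmelGSTo1 was at 54.3, 53.7, 41.2 and 42.3 in cythera and 50.3, 43.5, 36.8 and 48.3 in rosina. Individual 7, at 46.1 CPM, lay within the range of the later stage, and no other individual did. This amounted to a log2 fold change of −0.83 (SE 0.14, FDR = 1.45e-04). The neighbouring rows HmelGSTo6 (log2 fold change 0.64, SE 0.17, FDR = 0.00521) and HmelGSTo4 (0.50, SE 0.17, FDR = 0.0266) rose, and HmelGSTo5 at 0.27 was not called (FDR = 0.482).

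The zeta transferase HmelGSTz2, of the class that acts in tyrosine breakdown, was at 18.4, 13.8, 31.5 and 9.26 CPM in cythera at 50%. In rosina at 50% HmelGSTz2 was at 27.2, 28.7, 14.1 and 18.2 CPM. At 70% it was at 78.7, 47.7, 56.5 and 68.2 in cythera and at 61.4, 61.3, 57.8 and 66.8 in rosina. Every individual at 70% exceeded every individual at 50%, with a log2 fold change of 1.62 (SE 0.22, FDR = 2.48e-05). The second zeta gene, HmelGSTz1, was not called, at 1.70 to 5.09 CPM at 50% and 2.75 to 5.04 at 70% (log2 fold change 0.19, SE 0.20, FDR = 0.485).

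Epsilon transferases, the other insect-specific detoxification class, split in direction. HmelGSTe4 was at 19.3, 24.9, 9.75 and 13.4 CPM in cythera and 13.1, 19.3, 13.5 and 14.4 in rosina at 50%. At 70% HmelGSTe4 was at 28.4, 39.8, 31.1 and 36.3 in cythera and 35.5, 36.3, 18.05 and 34.7 in rosina. Individual 15, at 18.05 CPM, overlapped with the earlier stage, and the log2 fold change was 1.02 (SE 0.19, FDR = 5.29e-04). The change of HmelGSTe7 was smaller, from 29.99, 33.1, 40.7 and 40.8 CPM in cythera and 30.1, 28.2, 33.9 and 28.9 in rosina. HmelGSTe7 at 70% was 42.7, 45.5, 56.4 and 37.5 in cythera and 49.5, 48.0, 52.7 and 51.4 in rosina, a log2 fold change of 0.53 (SE 0.10, FDR = 6.39e-04). In cythera alone the ranges of HmelGSTe7 overlapped and the call was lost (FDR = 0.225).

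HmelGSTe2 was the epsilon gene with the most counts and the only 1 of its class called as lower at 70%. HmelGSTe2 stood at 406, 356, 422 and 5.86 CPM in cythera at 50% and at 469.6, 450.03, 297 and 359.7 in rosina. Its levels at 70% were 6.36, 1.77, 78.2 and 5.94 in cythera and 84.5, 119, 97.4 and 118 in rosina. Individual 4 therefore had a level as low as cythera individuals 9, 10 and 12, while individual 11 was close to the rosina individuals. HmelGSTe2 had a log2 fold change of −2.82 (SE 0.81, FDR = 0.0104), which became −2.97 (FDR = 0.00498) without individuals 4 and 13. The call was lost in males alone (FDR = 0.139) and in cythera alone (FDR = 0.0986). The same 4 cythera individuals were low in the anterior hindwing too, where HmelGSTe2 was at 9.77 CPM in individual 4 and at 12.2, 4.09 and 7.22 in individuals 9, 10 and 12. The remaining anterior hindwing levels lay between 319 and 459 CPM at 50% and between 85.2 and 140.4 at 70%.

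Of the unclassified transferases HmelGSTu2 rose and HmelGSTu1 fell. HmelGSTu2 was at 29.9, 34.5, 31.5 and 27.1 CPM in cythera and 39.8, 25.2, 31.5 and 37.7 in rosina at 50%. At 70% HmelGSTu2 was at 61.5, 41.8, 74.9 and 52.1 in cythera and 43.5, 48.9, 75.5 and 72.3 in rosina, again without overlap (log2 fold change 0.86, SE 0.15, FDR = 1.71e-04). HmelGSTu1 was weakly read, with 0.801 to 2.09 CPM (median 1.13) at 50% and 0 to 0.379 CPM (median 0.199) at 70% (log2 fold change −2.81, SE 0.62, FDR = 0.00174). Among sigma genes HmelGSTs9 was called as higher at 70% (log2 fold change 0.92, SE 0.31, FDR = 0.0259). This call did not hold in every fit that left out 1 individual. Neither HmelGSTs1 (log2 fold change 0.46, SE 0.38, FDR = 0.375) nor HmelGSTs4 (1.56, SE 0.96, FDR = 0.224) was called. The theta gene HmelGSTt1 was close to the threshold, with 7.26 to 23.5 CPM at 50% and 17.7 to 28.2 at 70% (log2 fold change 0.49, SE 0.19, FDR = 0.0428), and its call was kept in 5 of 16 fits that each left out 1 individual, those without individual 3, 4, 6, 10 or 15 (FDR 0.0185 to 0.0839 over the fits).

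**Figure D2:**
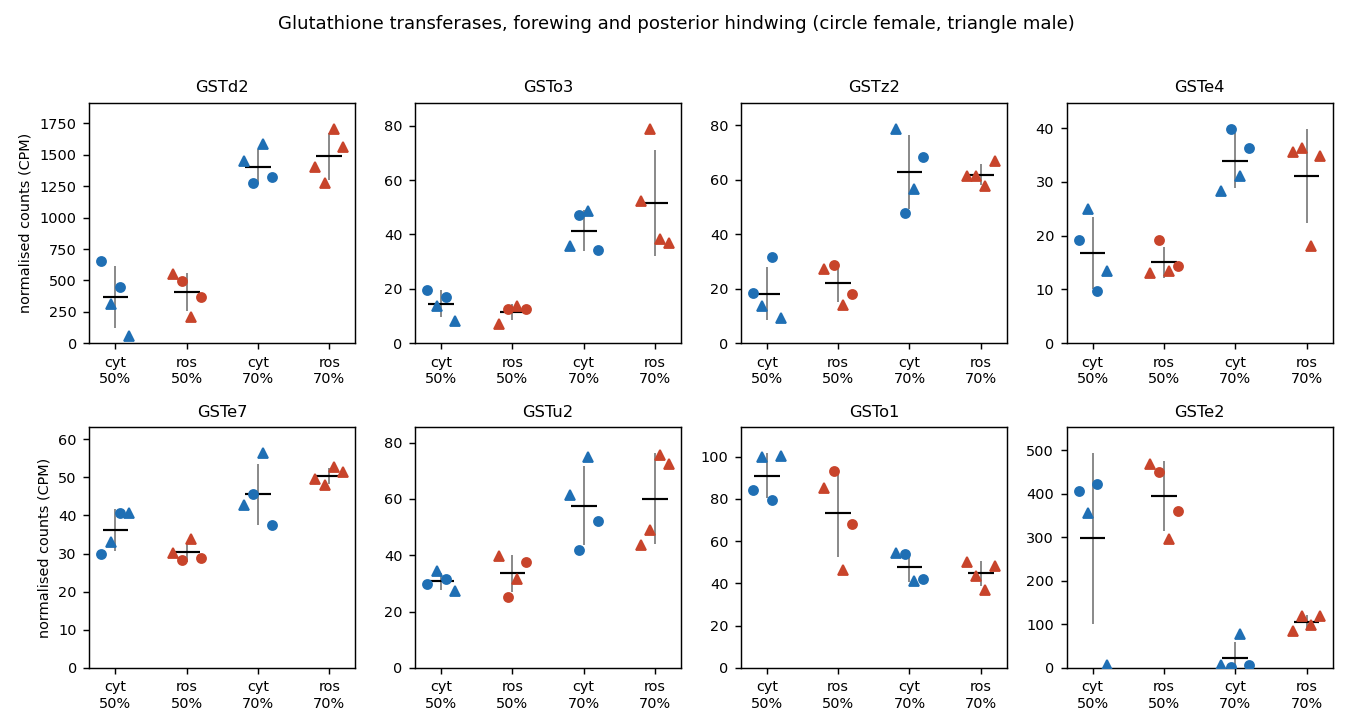
Normalised counts (CPM, y axis from 0) of 8 glutathione transferases in forewing and posterior hindwing libraries from cythera (blue) and rosina (red) at 50% and 70% development; points are individuals, black lines group means and grey bars 1 SD, ended at 0 where they would go below it. HmelGSTd2, HmelGSTo3, HmelGSTz2 and HmelGSTu2 show no overlap between stages, and the lowest HmelGSTe2 point at 50% is individual 4 at 5.86 CPM.

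UDP-glycosyltransferase fold changes with stage spread more widely than those of the glutathione transferases, and family UGT46 held members called in opposite directions. At the low end lay HmelUGT41E3 (−7.95) and HmelUGT46E1 (−7.65), with 8 and 5 of 8 libraries at 0 at 70%. Fitted fold changes against empty libraries are poorly bounded. The high end, HmelUGT40Z2 at 4.68, had 1 of 8 libraries at 0 at 50%. HmelUGT46E1 was at 183, 95.2, 118 and 12.2 CPM in cythera and 91.9, 103, 43.5 and 85.6 in rosina at 50%. At 70% HmelUGT46E1 was at 1.82, 1.86, 3.05 and 0 in cythera, and the 4 rosina libraries had no count. Its fitted log2 fold change was −7.65 (SE 1.07, FDR = 2.79e-05). Against the 3 counts that an empty rosina library allows, the mean rosina level of 80.9 ± 25.9 CPM (SD, n = 4) at 50% was at least 641-fold higher.

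HmelUGT46D3, whose locus number is 22700 against 22703 for HmelUGT46E1, changed in the opposite direction. At 50% HmelUGT46D3 was at 0.111, 0.0749, 0 and 0.598 CPM in cythera and 1.09, 1.37, 0.908 and 1.21 in rosina. By 70% HmelUGT46D3 was at 5.60, 1.96, 10.9 and 1.75 in cythera and 1.35, 3.74, 40.8 and 10.4 in rosina. Individual 13 had the lowest level at 70%, just under the highest at 50%, and individual 15 the highest. Its log2 fold change was 4.09 (SE 0.76, FDR = 3.90e-04), and it was 4.32 (FDR = 1.40e-04) without individual 13.

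HmelUGT44A4 was called as lower at 70% and had very unequal levels at 50%. The cythera individuals at 50% had 64.6, 158, 51.1 and 284 CPM of HmelUGT44A4 and the rosina individuals 122, 61.3, 271 and 63.4. At 70% it was at 25.1, 27.3, 23.3 and 36.4 in cythera and 21.8, 26.9, 30.9 and 20.5 in rosina. The stages did not overlap, and the log2 fold change was −2.35 (SE 0.37, FDR = 9.03e-05). With males alone the call held (FDR = 4.07e-05).

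HmelUGT45B1 was at 7.88, 5.77, 8.38 and 0.807 CPM in cythera and 10.1, 3.81, 3.10 and 6.504 in rosina at 50%. At 70% HmelUGT45B1 was at 0.568, 0, 1.88 and 0.547 in cythera and 0.940, 0.337, 0.520 and 0.977 in rosina. Individual 4 alone at 50% overlapped with the later stage, and the log2 fold change was −3.01 (SE 0.62, FDR = 0.00101), or −3.18 (FDR = 3.19e-04) without individual 4. In cythera alone HmelUGT45B1 was not called (FDR = 0.0746). Of the other UDP-glycosyltransferases that were called as lower, HmelUGT33AA2 had at most 2.17 CPM, with counts in 6 of 8 libraries at 50% and 2 of 8 at 70% (log2 fold change −4.65, SE 1.29, FDR = 0.00842). HmelUGT33Z2 had 0 to 8.97 CPM at 50% (median 3.45) and 0 to 0.993 at 70% (log2 fold change −3.52, SE 1.22, FDR = 0.0299).

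Of the UGT40 family, HmelUGT40Z2, HmelUGT40V2/HmelUGT40V3 and HmelUGT40X1 rose with stage. HmelUGT40Z2 was at 0.957, 0.300, 0.273 and 0 CPM in cythera and 2.11, 2.07, 0.296 and 0.292 in rosina at 50%. At 70% HmelUGT40Z2 was at 1.70, 0.932, 2.87 and 16.1 in cythera and 9.06, 105, 50.1 and 56.2 in rosina. Individuals 9 and 10 overlapped with the earlier stage, and the log2 fold change was 4.68 (SE 0.86, FDR = 3.53e-04). In cythera alone the FDR was 0.0582, with a log2 fold change of 3.73.

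The joint row HmelUGT40V2/HmelUGT40V3 was at 7.83, 3.40, 7.64 and 0.269 CPM in cythera and 1.67, 4.94, 0.485 and 0.584 in rosina at 50%. At 70% HmelUGT40V2/HmelUGT40V3 was at 22.9, 17.1, 18.9 and 30.8 in cythera and 20.4, 22.1, 17.5 and 13.3 in rosina. The stages did not overlap in any individual (log2 fold change 2.71, SE 0.57, FDR = 0.00118). HmelUGT40X1 had 0 to 3.32 CPM at 50% (median 0.704) and 1.97 to 16.7 at 70% (median 5.56), a log2 fold change of 2.85 (SE 0.72, FDR = 0.00463). HmelUGT50A4, the member of the conserved family, was not called, with 71.6 to 167 CPM at 50% and 88.9 to 214 at 70% (log2 fold change 0.13, SE 0.17, FDR = 0.577), and neither was HmelUGT42B3 (−0.22, SE 0.23, FDR = 0.492).

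**Figure D3:**
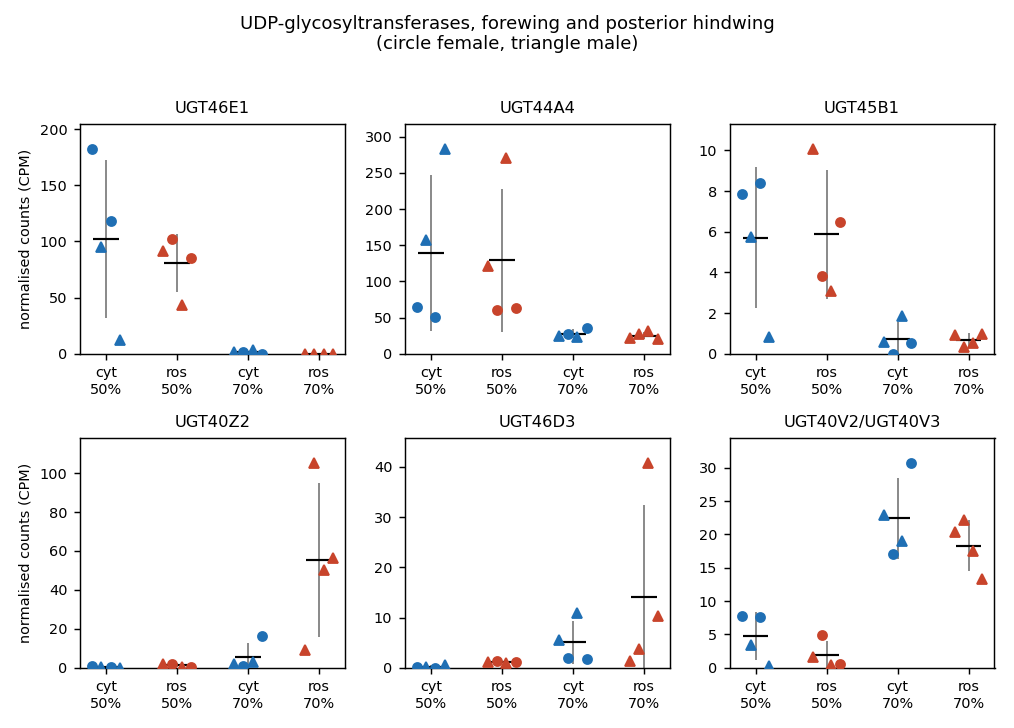
Normalised counts (CPM, y axis from 0) of 6 UDP-glycosyltransferase rows in the forewing and posterior hindwing; points are individuals (cythera blue, rosina red), black lines group means and grey bars 1 SD, ended at 0. HmelUGT46E1 dropped from a highest level of 183 CPM at 50% to at most 3.05 at 70%, and in HmelUGT44A4 the 4 males at 50% lie above the 4 females.

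Of the 42 members tested, 8 had no overlap between the 8 individuals at 50% and the 8 at 70%, where 16.8% of all rows tested had none. Of the 23 calls, 19 held in all 16 fits that left out 1 individual. The other 4 were HmelGSTs9 (lost without individual 1, 2, 3, 4 or 16, FDR 0.00604 to 0.0581 over the fits), HmelGSTo4 (lost without 2, 4, 6, 10, 12 or 16, FDR 0.0139 to 0.0620), HmelUGT33Z2 (lost without 1 or 6, FDR 0.0123 to 0.0702) and HmelGSTt1. In cythera alone 12 of 36 members were called, against 29.3% of all rows, and in rosina alone 17 of 34, against 31.7%, with 10 members called in both. Because the rosina individuals at 70% were all male, stage was also tested in males alone, where 15 of 44 members and 24.7% of all rows were called. The 15 were all among the 23, and the 8 calls lost were HmelGSTe2, HmelGSTo4, HmelGSTs9, HmelGSTt1, HmelGSTu1, HmelUGT33AA2, HmelUGT33Z2 and HmelUGT40X1.

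Subspecies differences among the members were few. At 50% development the sigma transferase HmelGSTs9 was lower in cythera, and it was the only member of 39 called, 1 of the 0.861% of rows called as lower in cythera and of the 1.64% called in either direction. HmelGSTs9 was at 5.01, 5.32, 3.00 and 4.96 CPM in cythera and at 14.5, 18.1, 16.2 and 20.9 CPM in rosina. The groups did not overlap, and the log2 fold change was −1.94 (SE 0.22, edgeR FDR = 0.0104). The anterior hindwing of the same individuals gave 5.64, 6.11, 2.99 and 6.51 CPM in cythera and 11.7, 15.4, 18.2 and 22.8 in rosina (log2 fold change −1.69, FDR = 0.0375). Without individual 8 the FDR was 0.0501, and without individual 4 it was 0.0130. With males alone, 2 against 2, the log2 fold change was −1.59 and the FDR 0.235. Sigma transferases act on products of lipid oxidation, as shown for the enzyme of Drosophila.

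At 70% HmelGSTs9 no longer separated the subspecies, with 25.5, 11.3, 13.2 and 10.7 CPM in cythera and 10.1, 17.5, 21.2 and 28.1 in rosina. Individual 9 was above 3 of the rosina individuals, and individual 13 was the lowest of all. Fitted alone, HmelGSTs9 rose with stage in cythera (FDR = 0.00625), and in rosina the log2 fold change was 0.12 (FDR = 0.790). The difference between these stage changes, tested as an interaction, was 1.60 on the log2 scale (SE 0.45) with an unadjusted p of 0.00310 in edgeR's model and an FDR of 0.547, and thus did not pass. In that interaction test edgeR called 0 of 42 members and 0% of the 14722 rows, with 3 members at an unadjusted p under 0.05. DESeq2 called 0.754% of all rows and 1 member, HmelUGT46E1.

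HmelUGT41E3 was read at 50% in all rosina individuals, at 1.89, 1.34, 2.43 and 3.34 CPM, against 0.225 CPM in cythera individual 2 and no count in cythera individuals 1, 3 and 4. The log2 fold change of HmelUGT41E3 was −5.17 (SE 1.24, edgeR FDR = 0.107). It was called by DESeq2 (FDR = 2.91e-04) and by edgeR's newer quasi-likelihood fit (FDR = 0.0213). The edgeR fit without individual 2 called it too (FDR = 0.0372). That fit leaves cythera with no count at all, so it adds no support. At 70% no forewing and posterior hindwing library of either subspecies had a count of HmelUGT41E3, so its rosina level at 50%, 2.25 ± 0.849 CPM (SD, n = 4), was at least 17.8-fold above the limit of 3 counts per rosina library at 70%. It was called in the stage test (FDR = 0.00266), a call that rests on the 4 rosina libraries at 50%. Among the cythera libraries of this region only that of individual 2 had a count, and HmelUGT41E3 was not tested for stage in cythera alone. In the anterior hindwing at 70% it was read in individual 14 alone, at 0.873 CPM.

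Leaving out individual 4 brought the number of members called between subspecies at 50% to 3 of 41, and the share of all rows called rose as well, to 2.29%. The 2 added were HmelUGT40U1, which was higher in cythera (log2 fold change 2.06, FDR = 0.0435), and HmelGSTs1, which was lower (−1.75, FDR = 0.0468). HmelUGT40U1 was at 13.8, 7.67 and 16.4 CPM in cythera individuals 1 to 3, 0.299 in individual 4 and 3.56, 4.16, 1.60 and 2.75 in rosina. HmelGSTs1 was at 25.3, 36.3 and 21.2 CPM in individuals 1 to 3, 89.99 in individual 4 and 52.4, 129, 108 and 82.7 in rosina. In both genes individual 4 lay beyond or within the rosina range and away from the other cythera individuals.

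At 70% development edgeR called 0 of 33 members between subspecies, as it called 0% of the 12138 rows, with 2 members at an unadjusted p under 0.05, and DESeq2 called 2 members and 1.25% of all rows. Without individual 13 edgeR called 1 of 35 members and 31 of 12907 rows, against 0 to 2 rows without any other individual. The 0% is thus for all individuals as labelled. After removing its mislabelled rosina individual, the study did report genes that differed between subspecies at this stage. The 2 members called by DESeq2 were those at an unadjusted p under 0.05, HmelGSTo6 and HmelUGT40Z2. HmelGSTo6, an omega transferase, was at 35.7, 36.0, 33.2 and 37.3 CPM in cythera and 22.7, 18.8, 15.9 and 17.5 in rosina, without overlap. Its log2 fold change of 0.93 (SE 0.13, edgeR FDR = 0.0862) passed when individual 13, the rosina individual nearest to cythera, was left out (1.04, FDR = 0.0348). The anterior hindwing levels of HmelGSTo6 at 70% were 36.3, 33.0, 33.5 and 33.8 CPM in cythera and 23.7, 22.1, 17.2 and 16.4 in rosina (log2 fold change 0.76, FDR = 0.265). At 50% HmelGSTo6 was at 24.3, 25.9, 15.5 and 17.96 CPM in cythera and 12.0, 20.03, 9.92 and 9.42 in rosina, where individual 6 overlapped (log2 fold change 0.69, FDR = 0.354).

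HmelUGT40Z2 was lower in cythera at 70% by sign, at −3.35 on the log2 scale (SE 1.02, edgeR FDR = 0.537, DESeq2 FDR = 0.0140). Individual 13 at 9.06 CPM lay within the cythera range of 0.932 to 16.1 CPM, and the other rosina individuals lay between 50.1 and 105. Without individual 13 the log2 fold change was −3.70 (edgeR FDR = 0.153).

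**Figure D4:**
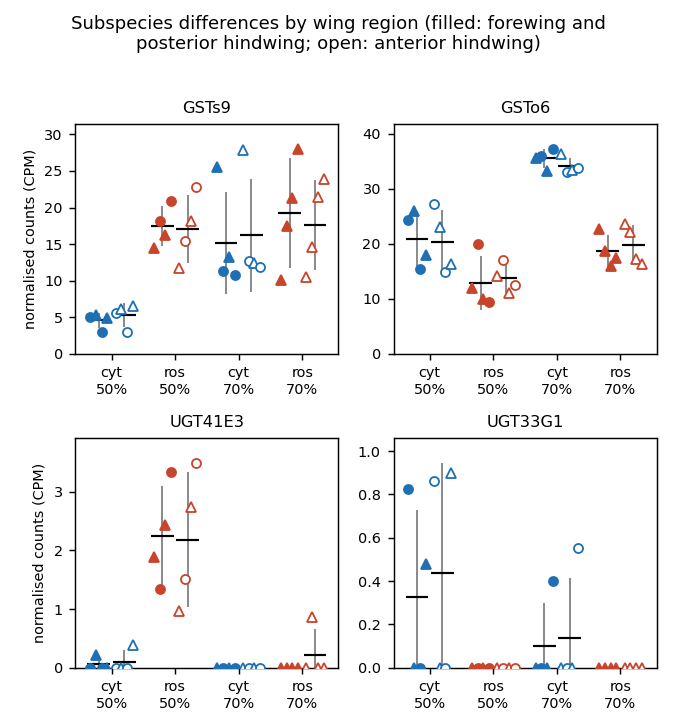
Normalised counts (CPM, y axis from 0) of 4 members in both wing regions of each individual (filled points forewing and posterior hindwing, open points anterior hindwing, circles females, triangles males); black lines are group means and grey bars 1 SD, ended at 0. HmelGSTs9 at 50% stays at or below 6.51 CPM in cythera and at or above 11.7 in rosina, and HmelUGT33G1 is above 0 in both libraries of 3 cythera individuals and in no other library.

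Some weakly read members had counts in few individuals. HmelUGT33G1 had counts in 6 libraries, both of individuals 1, 4 and 12, all cythera, at 0.401 to 0.898 CPM, and in neither library of the others. HmelUGT40Z1 had counts in both libraries of rosina individuals 14 and 16, at 1.94 and 0.524 CPM in the forewing and posterior hindwing, and in 1 library each of rosina individuals 6 and 8. HmelGSTs6 was read in individuals 1, 2 and 3 only, most in the anterior hindwing of individual 2 at 2.95 CPM. HmelUGT40V1 had no count in the 8 rosina libraries at 50%. These rows were described because of these patterns. HmelUGT40Z1 entered no test, and the other 3 were not called in the tests they entered. HmelUGT40V1 had a log2 fold change of 3.11 with stage (SE 1.35, FDR = 0.0801), and it was called with edgeR's newer fit (FDR = 0.0409) and with the libraries of each individual summed (FDR = 0.0430).

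Of 6 UGT40 rows tested at 70%, 3 differed between the wing regions within individuals. HmelUGT40U1, HmelUGT40V2/HmelUGT40V3 and HmelUGT40X1 were lower in the forewing and posterior hindwing than in the anterior hindwing. In the test with individual as a block these were the 3 of 38 members called, all in that direction, where 1.51% of the 14692 rows were called as lower, 2.12% as higher and 3.63% in all. DESeq2, edgeR's newer fit and the filter of at least 10 counts in every library each called 2 members as higher in the forewing and posterior hindwing. These were HmelGSTz2 (log2 fold change 0.36, FDR = 0.0570 in the reported fit) and HmelUGT41E1 (0.78, FDR = 0.0580). As lower these 3 settings called 5, 4 and 3 members, in that order. In either direction they called 6.4%, 4.8% and 6.58% of all rows. By sign 29 of the 38 members were higher in the anterior hindwing, and the median log2 fold change was −0.14 over the members and −0.02 over all rows.

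In the forewing and posterior hindwing at 70%, HmelUGT40U1 was at 2.12, 0.687, 9.78 and 0.875 CPM in cythera and 12.1, 0.841, 1.27 and 1.47 in rosina. The anterior hindwings of the same individuals had 3.88, 1.13, 15.1 and 2.28 CPM of HmelUGT40U1 in cythera and 18.3, 1.93, 2.47 and 2.21 in rosina. In all 8 individuals the anterior hindwing was the higher of both regions, and the ratios within an individual ran from −1.32 to −0.57 on the log2 scale. Individuals 11 and 13 were high in both regions, so the levels of the regions overlapped and the difference shows within individuals. Over all 8 the log2 fold change was −0.84 (SE 0.12, edgeR FDR = 0.00283), and the call held without each of the 8 individuals in turn (FDR 0.00420 to 0.0119). In each subspecies alone it was not called, with −0.87 in cythera (FDR = 0.204) and −0.80 in rosina (FDR = 0.0732).

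HmelUGT40V2/HmelUGT40V3 was higher in the anterior hindwing in 7 of 8 individuals at 70%. It had anterior hindwing levels of 36.9, 17.4, 27.0 and 29.9 CPM in cythera and 33.2, 48.1, 34.97 and 17.9 in rosina. Individual 12 was the exception, at 0.04 on the log2 scale, and individual 14 had the strongest ratio, at −1.12. The log2 fold change of HmelUGT40V2/HmelUGT40V3 was −0.56 (SE 0.13, FDR = 0.0298), and it was −0.29 (FDR = 0.622) in cythera alone and −0.82 (FDR = 0.0261) in rosina alone. HmelUGT40X1 was lower in 7 of 8 individuals, all but individual 16, with a log2 fold change of −0.60 (SE 0.14, FDR = 0.0398). Its call held in 1 of 8 fits that left out an individual, the fit without individual 16 (FDR 0.00455 to 0.133), and the call of HmelUGT40V2/HmelUGT40V3 held in 2 of 8, those without individual 10 or 12 (FDR 0.0106 to 0.0867). Of the other UGT40 rows tested at 70%, HmelUGT40Z2 was lower in 6 of 8 individuals (FDR = 0.399), HmelUGT40V1 in 5 of 8 (FDR = 0.833) and HmelUGT40Y1 in 4 of 8 (log2 fold change 0.04, FDR = 0.933), and none was called.

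**Figure D5:**
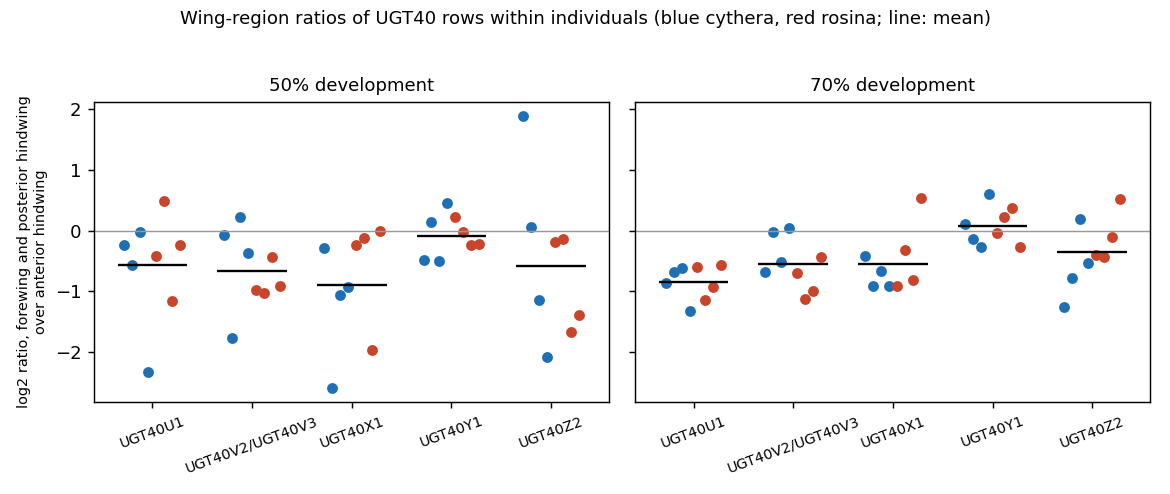
Log2 ratio of normalised counts, forewing and posterior hindwing over anterior hindwing of the same individual (y axis), for 5 UGT40 rows at 50% and 70% development; each point is 1 individual (cythera blue, rosina red) and the black line is the mean of 8. For HmelUGT40U1 at 70% all points lie between −1.32 and −0.57, and for HmelUGT40Y1 they lie on both sides of 0.

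At 50% edgeR called 0 of 46 members between wing regions, where 0.549% of the 16025 rows were called, with 7 members at an unadjusted p under 0.05. DESeq2 called 2.8% of all rows and 2 members, HmelUGT33Z2 and HmelGSTu2. For HmelUGT33Z2 the anterior hindwing was the lower region in 7 of 8 individuals at 50%, with medians of 1.48 CPM there and 3.45 CPM in the rest (log2 fold change 0.87, SE 0.18, edgeR FDR = 0.0790). HmelGSTu2 was higher in 8 of 8 individuals, by a mean of 0.24 on the log2 scale (edgeR FDR = 0.126). HmelUGT40X1 and HmelUGT40V2/HmelUGT40V3 had negative fold changes at 50% too, −1.10 (FDR = 0.211) and −0.70 (FDR = 0.216). In the test of whether the wing-region difference changed with stage, edgeR called 0 of 49 members and 0.637% of the 17902 rows, with 5 members at an unadjusted p under 0.05. DESeq2 called 2.81% of all rows and 1 member, HmelUGT46D3 (edgeR FDR = 0.0926).

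Differences between individuals were also compared between the libraries of the same animal. For the 31 members with a mean of at least 1 CPM, deviations from the group mean in the forewing and posterior hindwing were set against those in the anterior hindwing over 16 individuals. The correlations ranged from 0.41 for HmelGSTo3 to 0.99 for HmelGSTe2, with a median of 0.91. For the 18 other members that passed the filter they ranged from −0.08 for HmelGSTo7 to 0.99 for HmelUGT33G1, with a median of 0.47. These values are a description.

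Between the sexes at 50%, with subspecies as a covariate, edgeR called 0 of 39 members, as it called 0.102% of the 12779 rows. Of the members 2 had an unadjusted p under 0.05 in that test. DESeq2 called 1 member and 2.16% of all rows. That member was HmelUGT44A4, which was at 158, 284, 122 and 271 CPM in the males 2, 4, 5 and 7 and at 64.6, 51.1, 61.3 and 63.4 CPM in the females 1, 3, 6 and 8. All 4 males exceeded all 4 females, in both subspecies. The share of all rows that separate the sexes in this way was not counted, so the separation is given as a description only. The log2 fold change, female against male, was −1.78 (SE 0.30, edgeR FDR = 0.184, DESeq2 FDR = 1.51e-05). The anterior hindwing levels of HmelUGT44A4 were 89.7, 261, 96.9 and 194 CPM in the males and 58.3, 58.9, 54.3 and 61.1 in the females, again without overlap (log2 fold change −1.44, edgeR FDR = 0.332). They come from the same animals and are not an independent observation. At 70% the cythera females 10 and 12 had 27.3 and 36.4 CPM and the 6 males at that stage 20.5 to 30.9 CPM. HmelUGT42B3 was the other member at an unadjusted p under 0.05, at −0.58 on the log2 scale (FDR = 0.623).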

How the data were processed

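The authors trimmed reads with Trimmomatic 0.38, aligned them with HISAT2 2.1.0, used SAMtools 1.9 and StringTie 1.3.5, and deposited unscaled whole-number counts per gene. The genome build is not given in the sources used here. Of the table's columns 0 were left unused. None of the 168 IDs and names of the members was found among 15508 RefSeq genes, so no sequences or positions are shown.

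The members and gene lists were chosen with earlier results of these data known. Named were members called in any of the 8 tests and, in each family, the member with most counts and the member with the smallest stage FDR. This gave 29 members, and the 12 with the smallest FDR were to be given by library. Values by library of HmelGSTs9, HmelGSTo6, HmelGSTe2, HmelGSTs1, HmelUGT41E3 and UGT40 rows, and rows named outside the rule, were added after their values were seen.

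Tests used edgeR 4.0.16 in R 4.3.3 (legacy quasi-likelihood F-test, TMM, filterByExpr with a minimum count of 10), with DESeq2 1.42.0 as an alternative. Standard errors were derived from the F statistic. Individual was a block for wing regions. Per the labels both libraries with a number come from the same animal, and their deviations from group means correlated across genes at 0.636 to 0.846. Log2 ratios within individuals used a prior count of 2. Alternatives were RLE factors, other filters, the newer edgeR fit, the other wing region, summed libraries, a sex term, males, each subspecies, no block, each individual left out and, added after the data were seen, individuals 4 and 13 left out together. Counts of 48 library pairs within groups differed by a chi-square of at least 73.1 per degree of freedom, so no library was counted as a duplicate. The labels do not say whether individuals shared a brood.

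On simulated counts with 4-fold changes, edgeR recovered 124 of 180 changed genes for stage (13835 genes, 5 false calls), 96 of 185 for subspecies at 50% (12098 genes, 4 false calls) and 155 of 186 for wing regions at 70% (14095 genes, 7 false calls). Few genes were changed there, all by the same fold, and counts were drawn independently, whereas the real stage test called 41.1% of 14722 rows. The recovery and false calls therefore need not hold for the reported tests.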

Additional observations from a re-analysis of the deposited data

Results flagged for a closer look

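Named members were screened in the forewing and posterior hindwing groups of 4 for a highest or lowest level that stood apart by Dixon's test at the 95% level. Of 111 groups with more than 3 counts in some library, 15 had such a level. In 5 of these the other 3 libraries had no count, which fixes the outcome of the test. Of the remaining 106 groups 10 had such a level, or 9.43%. The nominal rate of about 1 in 20 groups holds for normally distributed values, whereas the CPM were not transformed. The members screened were also named partly for their calls, and the share over all rows was not counted. An excess over chance can therefore not be read from these numbers. Over all 15, 10 were high and 5 low. Individuals 11 and 15 had 3 of them each, and individuals 4 and 13 had 1 each.

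HmelGSTe2 in individual 4 was low at 5.86 CPM against 356 to 422 in the other cythera individuals at 50%. HmelGSTe2 in individual 11 was high at 78.2 CPM against 1.77 to 6.36 in cythera at 70%. HmelUGT40U1 was high at 12.1 CPM in individual 13, against 0.841 to 1.47 in the other rosina individuals at 70%, and it was also high in individual 11, at 9.78 CPM against 0.687 to 2.12 in cythera.

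HmelGSTs9 stood apart in individual 3, at 3.00 CPM, and in individual 9, at 25.5 CPM. HmelUGT40Z2 was high in individual 12, at 16.1 CPM against 0.932 to 2.87 in the other cythera individuals at 70%. HmelGSTo3 was low in individual 5, at 7.02 CPM, HmelGSTe4 was low in individual 15, at 18.05 CPM, and HmelGSTt1 was low in individual 10, at 18.4 CPM.

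In 5 groups a member was read in a single individual and at 0 in the other 3. These were HmelUGT41E3 in cythera individual 2 at 0.225 CPM, HmelUGT33AA2 in individual 11 at 0.147 CPM and in individual 15 at 0.1301 CPM, HmelUGT33Z2 in individual 15 at 0.976 CPM, and HmelUGT47A4 in individual 5 at 0.320 CPM.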

How the results depend on the processing

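No called member's fold change reversed in any alternative. The stage count of 23 of 42 members, against 41.1% of all rows, was 13 of 23 with at least 10 counts in every library. Fewer rows were tested there, and 54.2% of the 8756 rows were called. The count was 15 in males, 12 in cythera alone (24.7% and 29.3% of all rows) and 20 to 23 when each individual was left out. The count between subspecies at 50% was 2 with DESeq2 (6.09% of all rows called), 2 with the newer edgeR fit (2.47%), 0 in males and 0 to 3 when each individual was left out. At 70% it was 2 with DESeq2 (1.25%) and 0 to 1 when each was left out. The wing-region count at 70% was 7 with DESeq2 (6.40% of all rows), 5 with at least 10 counts in every library (6.58%), 6 with the newer fit (4.80%), 2 of them higher in the forewing and posterior hindwing each time, 0 in cythera, 1 in rosina and 1 to 4 when each individual was left out. Without the replicate block it was 0. DESeq2 called 2 members between wing regions at 50% (2.80% of all rows), and 1 each for sex (2.16%) and for the interactions of stage with subspecies (0.754%) and with wing region (2.81%). The causes of these shifts were not tested. In some of the alternatives fewer samples or rows entered. With 4 individuals a group, small changes of weakly read members may be missed.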
